A study of Mus musculus with 15 samples.

Results

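Cfd, C8a and C8b encode complement proteins, and their liver mRNA was followed across 15 ovariectomized mice. They were taken by symbol from the first column of the deposited expression table, in which they are 3 of 2545 rows. The rows hold 2530 distinct symbols, with 6 symbols on more than 1 row, and each row is counted as a gene here. The mice were C57BL/6J females that were switched to a high-fat diet (45% of calories from fat) at 8 weeks of age, ovariectomized at 10 weeks and then treated for 6 weeks. All 5 groups share the ovariectomy and the diet, and each has 3 mice. One group received vehicle (Veh) and another estradiol (E2) at 5 μg per kg and day. The others received conjugated estrogens (CE) at 2.5 mg per kg and day, bazedoxifene (BZA) at 3 mg per kg and day, or both (CE+BZA), for which the doses are not given in the sources used here. CE is a mixture of estrogens used in hormone therapy, and BZA is a selective estrogen receptor modulator, a compound that acts as an estrogen in some tissues and blocks estrogen in others. The sequenced mice were chosen from larger groups, E2 was delivered from pellets and CE from osmotic pumps, and no sham-operated mouse is in the table. The comparison asks how each treatment changes the complement genes of the estrogen-deficient liver, and whether the combination differs from its components.

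Complement is a cascade of plasma proteins that marks and lyses microbes and damaged cells. Factor D (adipsin), the product of Cfd, is the serine protease that cleaves factor B and so starts the amplification loop of the alternative pathway. In mice it is known above all as a secreted protein of fat cells. C8a and C8b encode the alpha and beta chains of C8, which are made mainly by hepatocytes. C8 joins the membrane attack complex at the end of the cascade and begins the insertion of the pore into the target membrane.

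Values are on the log2 scale that the authors deposited, in which every gene is set to 0 at its median over the 15 mice. A value therefore tells how a mouse compares with the other mice for that gene, and levels of different genes cannot be compared. All 2545 genes had a mean difference from Veh above 1 in size in at least 1 treatment, so the table is a selection of genes with large differences, and these 3 genes belong to it for the same reason. In 1045 genes at least 2 mice shared the lowest value, a floor left by the processing, but in 0 of the 3 complement genes did they. The read depth of the mice is not given in the table, and it listed 0 of 9 hepatocyte markers that were looked up, so the liver label was not checked against them. BZA mouse 3 stood apart from the others in adipocyte genes and CE mouse 3 in neutrophil genes.

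Cfd was high in all 3 Veh mice and lower in nearly every treated mouse. It was 4.89, 4.55 and 3.15 in Veh mice 1, 4 and 7, and −1.48, −1.97 and −0.83 in E2 mice 3, 4 and 5. The groups were far apart, with more than 3 log2 units between the highest E2 mouse and the lowest Veh mouse. CE mice 3, 6 and 7 had −0.43, −2.998 and 0.53, and CE+BZA mice 1, 2 and 3 had −0.37, 0 and 0.11. CE mice were widely spread and CE+BZA mice close together, but all 6 lay below every Veh mouse. In BZA the values were 0.53 and −0.88 in mice 1 and 4 and 4.59 in mouse 3, as high as the Veh mice. In whole liver, fewer cells that express a gene and less RNA per cell cannot be told apart.

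**Figure D1:**
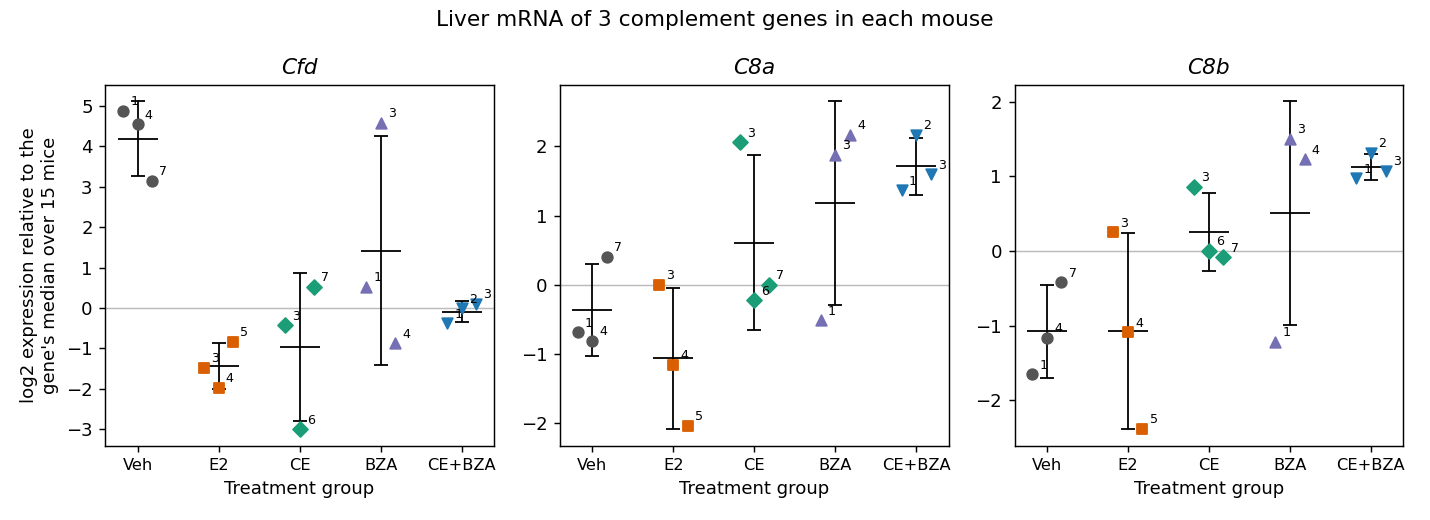
Log2 expression of Cfd, C8a and C8b relative to the median of the gene (y axis) in each mouse, by treatment group (x axis). Points are mice with their numbers, and black lines are the mean ± SD of 3 mice. Cfd lies between 3.15 and 4.89 in Veh and at 4.59 in BZA mouse 3, and the other 11 treated mice lie at 0.53 or below, while C8a and C8b are highest in CE+BZA.

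The difference in Cfd passed the threshold in E2. At a fold change above 2 and a Benjamini-Hochberg adjusted p (FDR) under 0.05 by limma, 1 of the 3 genes, Cfd, differed between E2 and Veh, where 0.196% of all genes did. At an unadjusted p under 0.05 by limma and a fold change above 2 it was also 1 of 3, against 15.1% of all genes. The log2 fold change of Cfd was −5.62 (SE 1.08, 95% confidence interval −7.90 to −3.35, FDR 0.0388 by limma), or 49.3-fold lower. By size it ranked 1 of 2545 in this comparison, and by p it ranked 4. The call was close to the threshold, and the FDR by limma rose above 0.05 in 11 of the 15 fits that left out 1 mouse. It reached 0.251 without Veh mouse 1. Some of these fits left out a mouse of another group (CE mouse 3, BZA mouse 1 or any CE+BZA mouse). There the log2 fold change stayed at −5.62, with an FDR of 0.0622 to 0.0791 by limma. Over the 15 fits the log2 fold change stayed between −6.15 and −5.28.

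In the other treatments the Cfd means were also below Veh, without passing. The log2 fold change was −5.16 in CE (95% interval −7.44 to −2.89, FDR 0.0645 by limma) and −4.28 in CE+BZA (−6.56 to −2.01, FDR 0.107 by limma). In BZA it was −2.78 (−5.06 to −0.51, FDR 0.283 by limma), and −4.37 without BZA mouse 3. None of the 3 genes passed in these treatments (0 of 3), against 0.157% of all genes for CE, 0% for BZA and 0.118% for CE+BZA. At an unadjusted p under 0.05 by limma and a fold change above 2 the numbers were 1, 2 and 3 of 3, against 18.6%, 16.4% and 21.1% of all genes. An ordinary linear model without shrinkage called 0 of 3 in each of these comparisons and in E2. For Cfd the mice on E2, on CE and on CE+BZA were all lower than every Veh mouse. Groups that did not overlap with Veh in either direction were found in 1 of the 3 genes for E2 (22.7% of all genes), 2 of 3 for CE (25.2%) and 3 of 3 for CE+BZA (28.4%). With 3 mice against 3, a two-sided exact permutation test cannot go below p = 0.1, the value it gave for each of these.

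Over the 4 treatments, Cfd differed from Veh by −4.46 log2 units. The treated mice had −0.27 ± 1.85 (SD, n = 12) and the Veh mice 4.20 ± 0.92 (SD, n = 3). A two-sided exact permutation test over all 455 splits gave p = 0.0132. Cfd was thus tested among genes selected for such differences. In the limma contrast of the mean of the treatments with Veh its FDR was 0.0359, and 0.236% of all genes passed. For C8a and C8b the same contrast gave 0.97 (95% interval −0.31 to 2.25, FDR 0.308 by limma) and 1.28 (0.072 to 2.49, FDR 0.244 by limma), and 2 of the 3 genes had an unadjusted p under 0.05 by limma and a fold change above 2, against 14.4% of all genes. For Cfd, 11 of 12 treated mice lay below every Veh mouse, and BZA mouse 3 did not. The share of all genes with such a count was not computed. The FDR of Cfd in this contrast also went above 0.05 by limma in 11 of the 15 fits without 1 mouse. It rose up to 0.168 without Veh mouse 1.

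BZA mouse 3 stood apart in its adipocyte transcripts. Of 23 adipocyte markers, 14 were in the table, and their mean log2 value was 2.62 in BZA mouse 3 and between −0.42 and 0.34 in the other 14 mice. Adipoq (adiponectin) was 5.52, Plin1 (perilipin 1, of lipid droplets) 5.11 and Lep (leptin) 4.35 in this mouse. In the 3 Veh mice Adipoq, Plin1, Lep, Cidea, Ucp1 and Lgals12 were at their lowest value, and the mean of the list ran from −0.33 to 0.19. The other 8 genes of the list were above their lowest value in at least 1 Veh mouse. Retn (resistin), at 5.32 in BZA mouse 3, was at its lowest value in Veh mouse 1 and at 0.17 and 0.99 in Veh mice 4 and 7. Plin4, Car3 and Pparg, which fatty hepatocytes also express, were not at the floor in any Veh mouse. Their mean over the 4 treatments differed from Veh by −1.34, −1.25 and −1.03 (FDR 0.187 to 0.195 by limma), but Plin4 by only −0.14 in CE+BZA. These 3 were the only genes of the 14 with a mean below Veh, and the other 11 were above it. Among the 11, Tusc5 differed most, by 1.38 (FDR 0.237 by limma). Adrb3, also not at the floor in any Veh mouse, differed by 0.63. The part of fat tissue in the Cfd values was not tested on its own. With the mean of the adipocyte list as a covariate, the log2 fold change of Cfd was −4.96 in CE and −4.31 in CE+BZA. The FDR values were 0.0205 and 0.0313 by limma, past the threshold. In E2 it was −5.07, also past the threshold, and in BZA −4.40, which did not pass. This covariate is set mainly by BZA mouse 3 and includes Plin4, Car3 and Pparg. The fit therefore does not test the part of fat tissue.

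**Figure D2:**
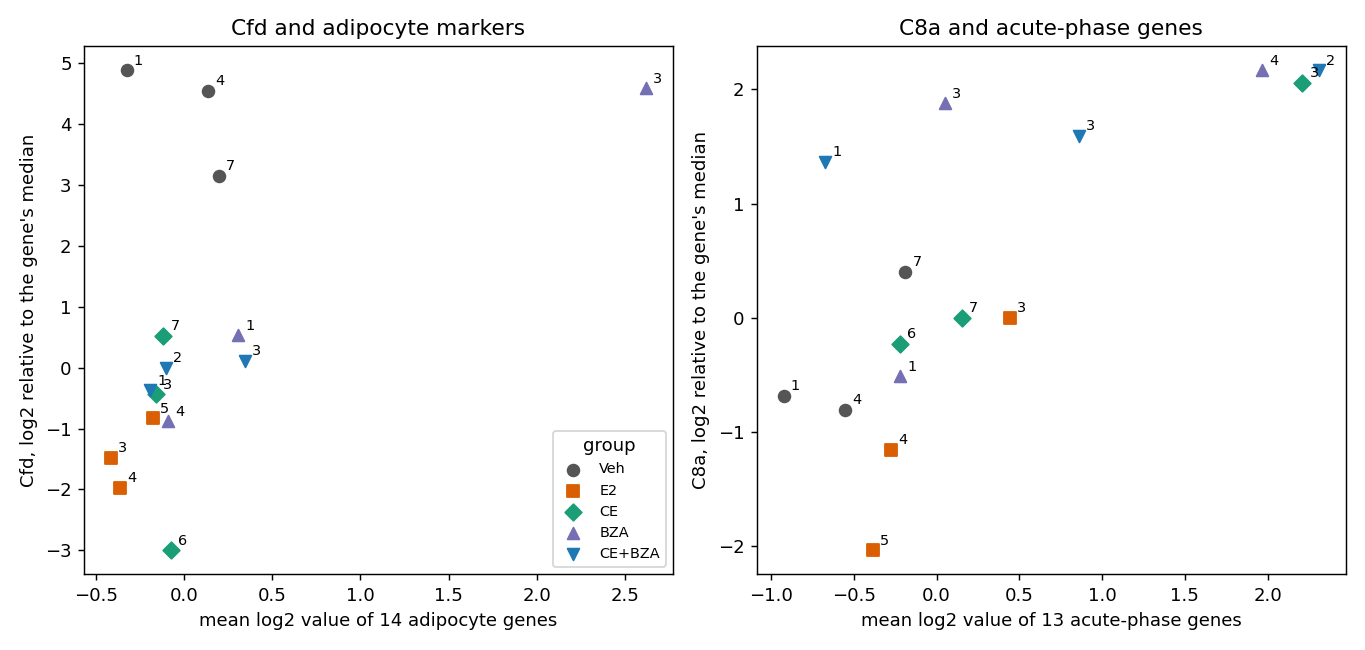
Left, Cfd (y axis, log2 relative to its median) against the mean log2 value of 14 adipocyte markers (x axis) in each of 15 mice; right, C8a against the mean log2 value of 13 acute-phase genes. Points are mice with their numbers, and color and shape give the group. BZA mouse 3 alone lies far to the right at 2.62 in the left panel, and the 3 Veh mice have high Cfd at −0.33 to 0.19. In the right panel CE+BZA mouse 1 has C8a at 1.37 with an acute-phase mean of −0.67.

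C8a and C8b had higher means in CE, BZA and CE+BZA than in Veh, and the highest in CE+BZA. C8a was −0.68, −0.81 and 0.40 in Veh mice 1, 4 and 7, and 1.37, 2.17 and 1.60 in CE+BZA mice 1, 2 and 3. C8b was −1.65, −1.16 and −0.42 in the same Veh mice and 0.98, 1.32 and 1.08 in the same CE+BZA mice. For both genes every CE+BZA mouse lay above every Veh mouse. The log2 fold change was 2.07 for C8a (SE 0.76, 95% interval 0.46 to 3.69, FDR 0.207 by limma) and 2.20 for C8b (SE 0.72, interval 0.67 to 3.73, FDR 0.175 by limma), or 4.21-fold and 4.60-fold. Neither passed the threshold. At an unadjusted p under 0.05 and a fold change above 2 both did, as did 11.6% of all genes in the upward direction.

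BZA alone gave a split group. C8a was 1.88 and 2.17 in BZA mice 3 and 4 and −0.51 in mouse 1, and C8b was 1.50, 1.23 and −1.22. Mice 3 and 4 were as high as the CE+BZA mice, whereas mouse 1 was within the range of Veh for both genes. The log2 fold change from Veh was 1.54 for C8a (95% interval −0.075 to 3.16, FDR 0.305 by limma) and 1.58 for C8b (0.054 to 3.12, FDR 0.297 by limma). Without BZA mouse 1 it was 2.39 for C8a and 2.45 for C8b.

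With CE alone the means were nearer to Veh, and with E2 they were at or below it. C8a in CE was 2.06 in mouse 3, −0.23 in mouse 6 and −0.000166 in mouse 7. It differed from Veh by 0.97 (−0.64 to 2.59, FDR 0.451 by limma), and by 0.25 without CE mouse 3. C8b in CE was 0.86, 0 and −0.085, above all 3 Veh mice in each mouse, which is a log2 fold change of 1.34 (−0.19 to 2.87, FDR 0.300 by limma). In E2, C8a was 0, −1.16 and −2.04 and C8b 0.25, −1.09 and −2.38 in mice 3, 4 and 5. E2 mouse 3 was within the Veh range in C8a and above it in C8b, and E2 mouse 5 was the lowest of the 15 mice in both. Their log2 fold changes in E2 were −0.70 (−2.32 to 0.91, FDR 0.651 by limma) and 0.0051 (−1.53 to 1.54, FDR 1 by limma).

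**Figure D3:**
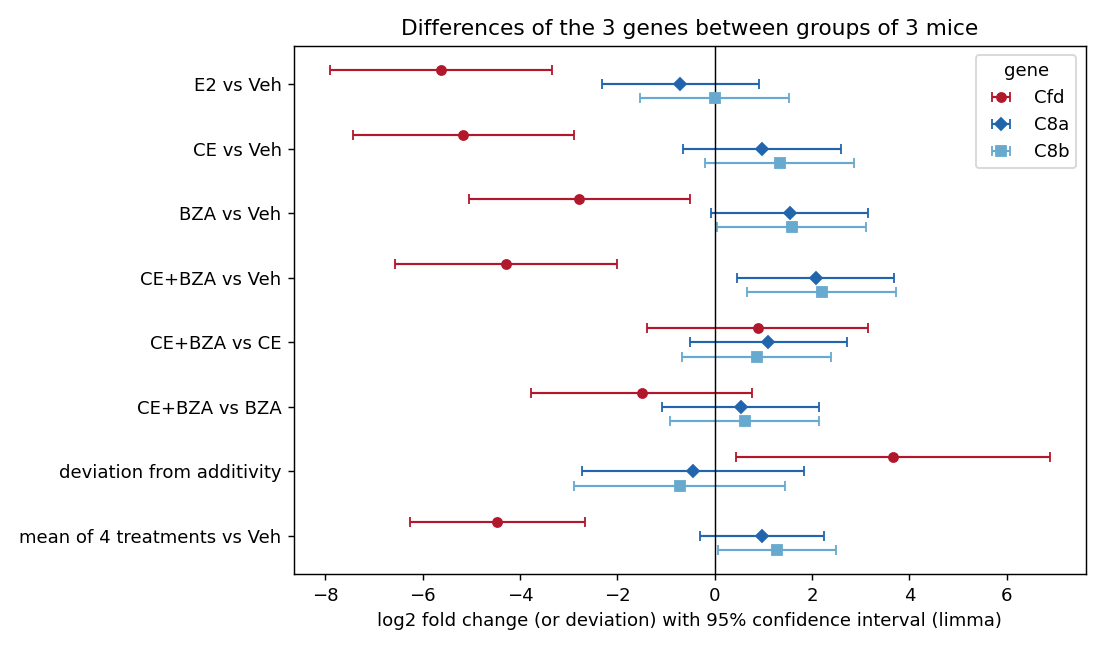
Log2 fold change, or deviation from additivity, of Cfd, C8a and C8b (x axis, with 95% confidence intervals from limma) in 8 comparisons (y axis). The intervals of Cfd lie below 0 for each treatment against Veh, and those of C8a and C8b lie above 0 for CE+BZA against Veh.

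Between the combination, whose doses are not stated, and its components no difference was detected. Between CE+BZA and CE, 0 of the 3 genes passed (0.0393% of all genes), and between CE+BZA and BZA 0 of 3 (0% of all genes). The counts at an unadjusted p under 0.05 by limma and a fold change above 2 were also 0, against 14.4% and 8.76% of all genes. For C8b all CE+BZA mice lay above all CE mice, and 1 of the 3 genes was thus without overlap, against 20.7% of all genes in either direction. The difference from CE was 0.88 for Cfd (95% interval −1.39 to 3.16), 1.10 for C8a (−0.52 to 2.72) and 0.87 for C8b (−0.67 to 2.40). The intervals include both 0 and differences of more than 1 log2 unit. The difference from BZA was −1.50 for Cfd (−3.78 to 0.77), 0.53 for C8a (−1.08 to 2.15) and 0.62 for C8b (−0.91 to 2.15). It changed sign for Cfd without BZA mouse 3 (0.085) and for C8a and C8b without BZA mouse 1 (−0.31 and −0.24).

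Additivity on the log2 scale means that the change in CE+BZA equals the sum of the changes in CE and BZA. C8a and C8b deviated from the sum by −0.44 (95% interval −2.73 to 1.84, FDR 0.858 by limma) and −0.72 (−2.88 to 1.45, FDR 0.732 by limma). Cfd lay above the sum, with a deviation of 3.66 (0.44 to 6.88, FDR 0.381 by limma). None of the 3 passed on the FDR by limma (0 of 3, against 0.118% of all genes), and 1 had an unadjusted p under 0.05 by limma and a deviation above 1 in size (12.3% of all genes). For C8a the sign of the deviation changed without CE mouse 3 (0.28) and without BZA mouse 4 (0.055).

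Ordered by mean, Cfd ran Veh, BZA, CE+BZA, CE, E2 from high to low, with means of 4.20 ± 0.92, 1.42 ± 2.84, −0.087 ± 0.25, −0.97 ± 1.82 and −1.43 ± 0.57 (SD, n = 3 each). C8a ran CE+BZA, BZA, CE, Veh, E2, with 1.71 ± 0.41, 1.18 ± 1.47, 0.61 ± 1.26, −0.36 ± 0.67 and −1.07 ± 1.02 (SD, n = 3 each). C8b ran CE+BZA, BZA, CE, E2, Veh, with 1.12 ± 0.17, 0.51 ± 1.50, 0.26 ± 0.52, −1.07 ± 1.31 and −1.08 ± 0.62 (SD, n = 3 each). In each of the 3 orders the ranges of every pair of neighbouring groups overlapped. The mice on CE+BZA spread least for each gene, over 0.48 log2 units for Cfd, 0.80 for C8a and 0.34 for C8b, and those on BZA spread most, over 5.46, 2.68 and 2.72.

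C8a and C8b moved together from mouse to mouse. Over the 15 mice their Pearson r was 0.95 (permutation test, p = 2e-05, the smallest it can give, 6e-05 adjusted over the 3 pairs of genes), and Spearman's rho was 0.90 with the same p. It was 0.94 without the pair of mice farthest from the median of C8a, BZA mouse 4 and CE+BZA mouse 2. After the mean of each group was subtracted it was 0.91, so the mice of a group also differed in parallel. The mice fell into 6 with C8a at 1.37 or above (CE mouse 3, BZA mice 3 and 4 and all 3 CE+BZA mice) and 9 at 0.40 or below. Within the 9, r was 0.85 (rho 0.73), and within the 6, which span a narrow range, it was 0.33 (rho 0.31). Over the 15 mice Cfd followed neither gene. Its r was 0.0052 with C8a (rho −0.0071, permutation p = 0.983, adjusted 0.983) and −0.14 with C8b (rho −0.12, permutation p = 0.615, adjusted 0.923). Without Veh mouse 1 and BZA mouse 3 the values of r were −0.034 and −0.19. Among the 12 treated mice alone they were 0.40 and 0.36.

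**Figure D4:**
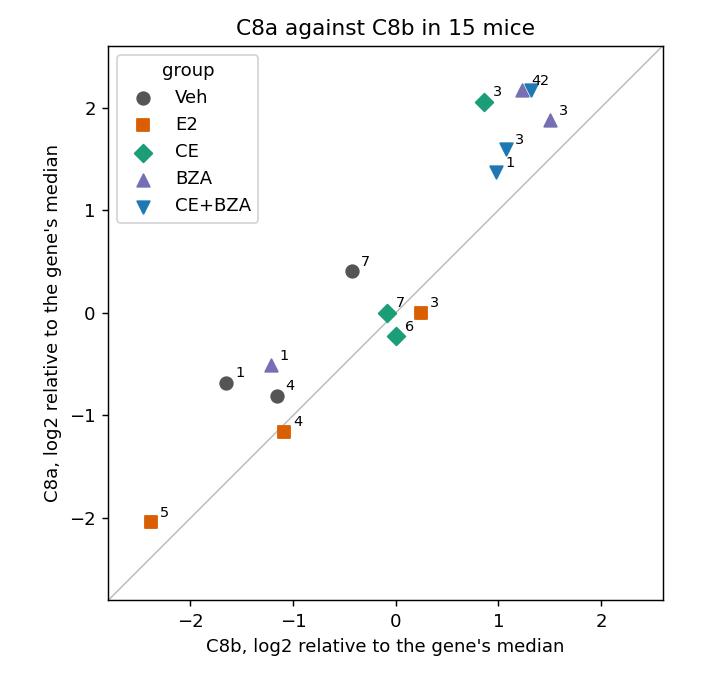
C8a (y axis) against C8b (x axis), both in log2 relative to the median of the gene, in 15 mice. Points are mice with their numbers, color and shape give the group, and the gray line marks equal values. Mice lie along the line over about 4 log2 units, with the 3 CE+BZA mice among the 6 in the upper right corner.

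The difference of C8a from C8b in the same mouse was compared between the groups. On this centred scale CE+BZA had 0.59 ± 0.24, BZA 0.67 ± 0.28 and Veh 0.72 ± 0.32 (mean ± SD of 3 mice). The means were 0.35 ± 0.75 for CE and 0.0090 ± 0.30 for E2. Every E2 mouse was below every Veh mouse in this difference, but narrowly, with 0.34 in E2 mouse 5 and 0.35 in Veh mouse 4. The mean difference was −0.71 (p = 0.1 by a two-sided exact permutation test, which cannot go lower). Single genes did not overlap between E2 and Veh in 22.7% of cases, and the share for such differences was not computed. Over the 12 treated mice the difference from Veh was −0.31 (exact permutation test, p = 0.303). For CE+BZA the difference from Veh was −0.13 (exact permutation test, p = 0.8).

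C8a and C8b are neighbours on chromosome 4, and Cfd lies on chromosome 10. In GRCm38, the build named mm10 in the submitters' processing notes, C8b runs from 104766317 to 104804548 on the plus strand in 12 exons and C8a from 104815679 to 104876398 on the minus strand in 11 exons. Their 3′ ends face each other across 11130 bases that hold 0 annotated genes. Cfd runs from 79890853 to 79892655 on the plus strand in 5 exons. No stretch of 50 bases of their annotated transcripts occurs in a transcript of another gene (0 for each gene), and C8a overlaps 1 other gene, Gm17662. The promoters of C8a and C8b are shown because the genes move together, and that of Cfd for contrast. Each is the 250 bases before the start site, 5′ to 3′ on the strand of the gene, from RefSeq on GRCm38.p6, at chr4:104876399-104876648 (minus strand), chr4:104766067-104766316 (plus strand) and chr10:79890603-79890852 (plus strand). Capitals mark matches to any motif of those searched on both strands.
C8a: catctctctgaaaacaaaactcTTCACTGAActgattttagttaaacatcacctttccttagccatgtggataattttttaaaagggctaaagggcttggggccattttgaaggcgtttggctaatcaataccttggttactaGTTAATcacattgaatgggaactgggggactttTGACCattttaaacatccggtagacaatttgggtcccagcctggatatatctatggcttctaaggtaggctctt
C8b: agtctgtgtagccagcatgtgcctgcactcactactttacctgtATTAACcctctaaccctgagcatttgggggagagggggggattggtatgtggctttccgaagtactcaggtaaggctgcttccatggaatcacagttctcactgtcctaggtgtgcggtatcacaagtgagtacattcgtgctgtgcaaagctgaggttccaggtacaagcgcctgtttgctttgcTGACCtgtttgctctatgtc
Cfd: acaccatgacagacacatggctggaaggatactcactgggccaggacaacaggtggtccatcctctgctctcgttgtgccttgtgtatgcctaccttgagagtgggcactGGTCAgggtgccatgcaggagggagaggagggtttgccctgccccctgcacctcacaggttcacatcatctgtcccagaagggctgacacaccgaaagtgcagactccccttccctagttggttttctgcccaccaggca

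GTTAAT, the core of the motif of the hepatocyte factor HNF1, occurs once in C8a, at −107, and once in C8b, at −206, on the opposite strand (ATTAAC). It is in the same window of 6.43% of 32851 RefSeq promoters and was not found in that of Cfd. GGTCA, the core of the estrogen receptor motif, occurs once in each of the 3 promoters, at −74 in C8a, −20 in C8b and −140 in Cfd, and in 35.2% of all promoters. The full estrogen response element, GGTCA and its reverse complement with 3 bases between, in 0.0639% of all promoters, was found in none of them (0 of 3). TTCNNNGAA, a motif of the STAT factors, was found in C8a at −228 (7.02% of all promoters), and TATAAA (12.4%) and TTGCNNAA, a motif of C/EBP factors (9.56%), in none (0 of 3). Such matches describe the letters and do not show binding. The windows also differ in base composition, with 40% G and C in C8a, 50.4% in C8b and 57.6% in Cfd, and a median of 52.4% over all promoters.

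Of 66 complement genes that were looked up, 10 were in the table, and apart from the 3 genes these were C4b, Fcnb, Colec10, C3, Vtn, Susd4 and Cr2. None of the 7 passed in any treatment by limma (0 of 7, against 0% to 0.196% of all genes by treatment). At an unadjusted p under 0.05 and a fold change above 2, 2 of 7 did for CE+BZA (21.1% of all genes), 1 for BZA (16.4%), 1 for CE (18.6%) and 0 for E2 (15.1%). The median log2 fold change of the 7 was 0.98 for CE+BZA (all genes 0.079), 0.84 for BZA (all genes 0.11), 0.84 for CE (all genes 0.055) and 0 for E2 (all genes 0). Vtn (vitronectin, an inhibitor of the membrane attack complex) was −0.71, −0.63 and −1.48 in the Veh mice and between −0.40 and 0.56 in the treated mice. All 12 treated mice lay above all 3 Veh mice, as in 1.26% of all genes (p = 0.0044 by a two-sided exact permutation test, the lowest it allows), with an FDR of 0.216 to 0.345 by limma in the 4 treatments.

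C3, the central component of the cascade, and C4b, of the classical pathway, had nearly the same pattern as each other. In Veh, C3 was −0.27, −0.30 and −1.97 and C4b −0.0030, 0 and −2.01 in mice 1, 4 and 7. Veh mouse 7 was the lowest of all mice in both, although it had the highest C8a and C8b of the Veh mice. The log2 fold change of C3 was 1.12 in CE+BZA (FDR 0.244 by limma) and 0.62 to 1.02 in the other treatments, and that of C4b was 1.12 in CE+BZA (FDR 0.281 by limma). Colec10, a collectin of the lectin pathway, had −0.27, −0.44 and −1.20 in the CE+BZA mice and −0.059 to 0.91 in the Veh mice. These groups did not overlap, as in 28.4% of all genes in either direction (difference −1.06, FDR 0.227 by limma). Fcnb (ficolin B, of the lectin pathway and of myeloid cells) was at its lowest value in 14 mice and at 4.57 in CE mouse 3. Susd4, a complement inhibitor, and Cr2, a complement receptor of B cells, had log2 fold changes of −0.49 to 1.04 and −1.11 to 0.64 in the 4 treatments.

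**Figure D5:**
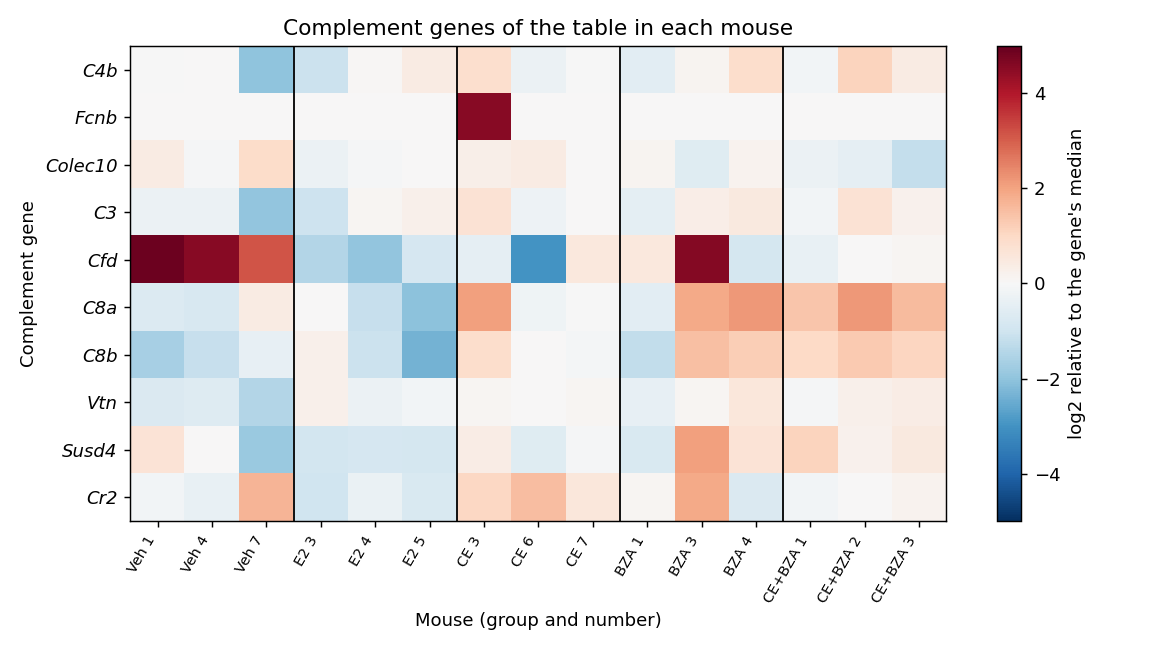
Log2 expression relative to the median of the gene (color scale) of the 10 complement genes of the table (rows) in each of 15 mice (columns, by group and number). Cfd is red in the 3 Veh mice and BZA mouse 3, C8a and C8b are red together in the 3 CE+BZA mice, and Fcnb is red in CE mouse 3 at 4.57.

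Acute-phase genes, which hepatocytes raise in inflammation, moved with C8a and C8b in some mice and not in others. Of 23 such genes 13 were in the table, and 0 of the 13 passed in any treatment by limma, against 0% to 0.196% of all genes by treatment. The median log2 fold change of the 13 was 1.34 for CE+BZA, 1.30 for BZA, 1.33 for CE and 0.45 for E2, beside medians over all genes of 0 to 0.11. Hamp2 went the other way, with −1.78 for CE+BZA (FDR 0.230 by limma), −0.86 for BZA and −0.46 for CE, and it had 0.77 for E2. The other 12 genes were above 0 in CE+BZA, BZA and CE. The mean of the 13 was 2.21 in CE mouse 3, 1.97 in BZA mouse 4, 2.31 in CE+BZA mouse 2 and 0.86 in CE+BZA mouse 3, and between −0.92 and 0.44 in the other 11 mice. These 4 mice were among the 6 with high C8a and C8b. The other mice of the 6 were CE+BZA mouse 1, where the mean was −0.67, and BZA mouse 3, where it was 0.049. Saa1 (serum amyloid A1, whose reads may be shared with its close paralog Saa2) was −0.78 in CE+BZA mouse 1, and C8a was 1.37 there, above every Veh mouse. The part of the acute-phase response in the C8a and C8b values was not tested. CE mouse 3 also had a mean of 5.67 over 12 neutrophil genes, against −1.02 to 1.13 in the other mice, and its part in the C8a mean of CE was not tested beyond leaving the mouse out.

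The genes whose values ran most nearly parallel to Cfd over the 15 mice were Kbtbd11 (Pearson r 0.86), Fitm1 (0.83), Gramd1b (0.83), Adamts15 (0.83) and Gsta1 (0.82). These r are a description, chosen as the highest of 2544, of which 7 exceeded 0.8 for Cfd. Fitm1 encodes a protein of lipid droplet formation, Gramd1b a sterol transporter, Adamts15 a matrix metalloprotease and Gsta1 a glutathione transferase with close paralogs. All 5 had their highest group mean in Veh and their lowest in E2, the same ends of the order as Cfd. Since the 5 were chosen by r over the same mice, that likeness is not a separate result. Their log2 fold changes in E2 were −1.27 to −3.08, smaller than that of Cfd. Gsta1 was the only one of the 5 to pass, in E2 (−3.08, FDR 0.00754 by limma) and in CE (−2.56, FDR 0.0462 by limma). Without BZA mouse 3 the 5 values of r were 0.79 to 0.87.

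C8b came first for C8a, and C8a for C8b. For C8a the next were Nnmt (r 0.91), Gm11827 (0.89), Saa4 (0.88) and Cxcl1 (0.85), and for C8b Nnmt (0.87), Saa4 (0.82), Agap2 (0.81) and Prtn3 (0.80). For C8a 9 of the 2544 other genes exceeded 0.8, and for C8b 5. Nnmt encodes nicotinamide N-methyltransferase, Saa4 a serum amyloid A of lipoproteins and Cxcl1 a neutrophil chemokine. Their log2 fold changes in CE+BZA were 1.25, 1.10 and 1.58, with FDR values of 0.240, 0.246 and 0.224 by limma. Prtn3, the gene of the neutrophil protease proteinase 3, had means of −1.26 in Veh and 3.72 in CE+BZA, and the difference of 4.98 did not pass (FDR 0.208 by limma). It was −0.29 in CE+BZA mouse 1 and 6.01 and 5.44 in mice 2 and 3. Over the 12 neutrophil genes of the table the median log2 fold change in CE+BZA was 0.58, with 9 genes above 0 and 3 below.

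Prtn3 and Elane, the gene of neutrophil elastase, are also the genes of the table that lie nearest to Cfd, 7678 and 2637 bases before it. Neither followed Cfd, with r of −0.15 for Prtn3 and −0.0089 for Elane over the 15 mice. Fstl3 before them and Grin3b, Efna2 and Gm15122 after Cfd had r with Cfd between −0.34 and 0.34. The gene nearest to the C8 pair, Dab1, at 21472 bases from C8b, had r of 0.22 with C8a and 0.24 with C8b. Sgip1 and Gm12795 before the pair and Glis1 and Rab3b after it lay 1792688 bases or more away and had r between −0.19 and 0.33 with C8a or C8b.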

How the data were processed

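Liver RNA was sequenced by the authors, who aligned trimmed reads with TopHat, then quantified genes in StrandNGS with DESeq normalization. The submitters' processing notes name mm10 and hg19 without a role. The labels describe a stranded kit read from both ends and 2 sequenced samples per group, the methods single-end reads and 3 per group; the table and the labels' sample list hold 3, and the strand setting of the counting is not given in the sources used here. The values that the authors deposited are log2 values relative to the median of each gene (0 in all 2545 rows), with a floor at low values and 1 mouse per column. Columns were matched by title, 0 were left over, and 0 of 105 pairs of mice were identical.

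The values entered the tests unchanged and unfiltered. A linear model of 5 groups was fitted to all 15 mice and 2545 genes with limma 3.58.1 in R 4.3.3, with eBayes and Benjamini-Hochberg adjustment over all genes. The threshold was an FDR under 0.05 with a change of more than 2-fold, or the FDR alone for additivity. The steps were tested on simulated data. Permutation tests and correlations used scipy 1.17.1 and numpy 2.4.6. Positions came from GENCODE on GRCm38 and promoters from RefSeq.

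The 3 genes, the gene lists and the tests were chosen with earlier results of these data known. Named genes were the 3 genes, every listed complement gene of the table, up to 6 genes of each other list with the largest mean change over the 4 treatments, the 5 genes with the highest correlation with each, and up to 3 neighbours on each side; 1 gene that the rule names is not reported here. The adipocyte genes at their lowest value were named for their values. Alternatives were quantile normalization, centring of each mouse, leaving out genes with mice at the floor, no shrinkage, a variance trend, array weights, only the groups compared, a replicate block, an adipocyte covariate and leaving out each mouse.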

Additional observations from a re-analysis of the deposited data

How the results depend on the processing

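Of 560 values of the 3 genes under alternatives, 512 kept their direction and their side of the threshold, and no difference of C8a or C8b passed in any of them. In CE, Cfd also passed with quantile normalization (−5.59), without the genes with 2 or more mice at the lowest value (−5.16), with array weights (−5.30), with the adipocyte covariate (−4.96), and without BZA mouse 3 or BZA mouse 4 (−5.16 in each, FDR 0.0313 and 0.0304 by limma). In CE+BZA, Cfd passed with quantile normalization (−4.71), array weights (−4.57) and the covariate (−4.31), which moved its difference from BZA to 0.090. In E2, Cfd no longer passed without shrinkage or with only the groups compared (−5.62 in each), and the mean of the 4 treatments not without shrinkage (−4.46). C8b in E2 was −0.041 with array weights. Replicate numbers recur between groups of different animals, and the main fit does not pair them. The deviations of same-numbered mice had a median correlation of −0.021 (13 pairs), beside −0.0026 for mice with other numbers (77 pairs). No pairing was seen, but so few pairs cannot exclude something shared by number. With the replicate block Cfd was −6.45 in E2 and −4.95 over the 4 treatments, neither of which passed, its difference between CE+BZA and CE was −0.27, and 0 genes passed in any comparison. CE mouse 6, E2 mouse 5 and CE+BZA mouse 2 are the only mice with their numbers. The block fits them exactly, so their values do not enter its differences, and it leaves less to estimate the spread from. The cause of the changes under the alternatives was not tested. Leaving out 1 mouse at a time gave ranges for Cfd of −6.15 to −5.28 in E2, −5.91 to −4.15 in CE, −4.99 to −4.12 over the 4 treatments, −2.65 to 0.085 between CE+BZA and BZA and −0.13 to 1.63 between CE+BZA and CE. The ranges were −0.66 to 0.66 for C8b in E2, −0.31 to 1.03 for C8a and −0.24 to 1.12 for C8b between CE+BZA and BZA, and −1.29 to 0.28 for the additivity of C8a. Against Veh, 5 genes passed for E2 (0 to 33 over all alternatives), 4 for CE (0 to 18), 0 for BZA (0 to 4) and 3 for CE+BZA (0 to 52). The number was 1 between CE+BZA and CE (0 to 9), 0 between CE+BZA and BZA (0 to 2), 3 for additivity (0 to 5) and 6 over the 4 treatments (0 to 28). The depth per mouse is unknown, and 3 mice per group limit what could be detected.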

Other observations

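Coagulation genes, which are also liver products, were thinly covered, with 4 of 45 in the table. None passed in any treatment by limma (0 of 4, against 0% to 0.196% of all genes by treatment). F11 (coagulation factor XI) had log2 fold changes of 1.31 for CE, 1.26 for E2, 0.84 for CE+BZA and 0.25 for BZA (FDR 0.199 to 0.717 by limma). Averaged over the 4 treatments, F13a1 differed from Veh by 0.96, Plaur by −0.59 and Gp9 by 0.35.

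The neutrophil list had 12 of 13 genes in the table, and 0 passed in any treatment by limma, against 0% to 0.196% of all genes by treatment. S100a8 and S100a9, calcium-binding proteins of neutrophils, had log2 fold changes of 3.70 and 3.67 in CE (FDR 0.175 by limma for each), where CE mouse 3 had a mean of 5.67 over the list and CE mice 6 and 7 had −0.11 and 1.01. Of the macrophage list 3 of 14 genes were in the table, and their mean was 2.66 in CE mouse 3 and −0.75 to 0.69 in the other mice.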
